A study of Oryza sativa with 8 samples.

Results

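The comparison set the pre-emerged panicle of rice with a knockdown of NRPD1, the largest subunit of RNA polymerase IV, beside the same tissue of wild-type (WT) plants. All plants were of the indica cultivar Pusa Basmati 1. The labels list 2 libraries of WT panicle and 2 of nrpd1 knockdown panicle, among 8 libraries that also cover anther of both genotypes, and call the knockdown plants pol IV knockdown lines. The construct, the number of lines, and whether the libraries came from separate plants are not given in the sources used here. The deposited table holds 1 FPKM value per gene for each group (fragments per kilobase of transcript after scaling by the mapped fragments). No value has an error, no difference could be tested, and the depth behind the values is unknown. Of 30154 gene names, 18655 reached 1 FPKM in at least 1 of the panicle columns and were compared. A gene is called higher or lower in what follows where log2(FPKM + 1) differed by at least 1 between knockdown and WT panicle.

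RNA polymerase IV transcribes transposons and repeats into short precursors. An RNA-dependent RNA polymerase and a Dicer-like enzyme turn these into small interfering RNAs, which guide DNA methylation. Plants with less of this pathway can express genes near silenced repeats differently. The rice panicle before emergence holds branches, spikelets with their glumes, and florets whose stamens pass through meiosis, tapetum breakdown and pollen filling, so that its RNA mixes many cell types. In such bulk tissue, fewer cells of a type and less RNA per cell cannot be told apart.

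In knockdown panicle 2471 genes were higher, 13.2% of those compared, and 1992 were lower, 10.7% of those compared. The genes called higher had a median log2 difference of 1.59 and those called lower a median of -1.65. Large differences lay more on the lower side, with 330 genes lower and 270 higher by at least 3 on the log2 scale. Between the 5th and the 95th percentile of all compared genes the log2 difference ran from -1.70 to 1.84. The limit of 1 fell in a dense part of this spread: 305 genes lay within 0.1 above it and 333 within 0.1 below it on the higher side, and 230 and 279 on the lower side. Summed FPKM was 382488 in WT panicle and 428187 in knockdown panicle. With the panicle totals made equal, the share of calls that were higher went from 55.4% to 47.4%, so the majority of higher calls turns with that scaling.

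**Figure D1:**
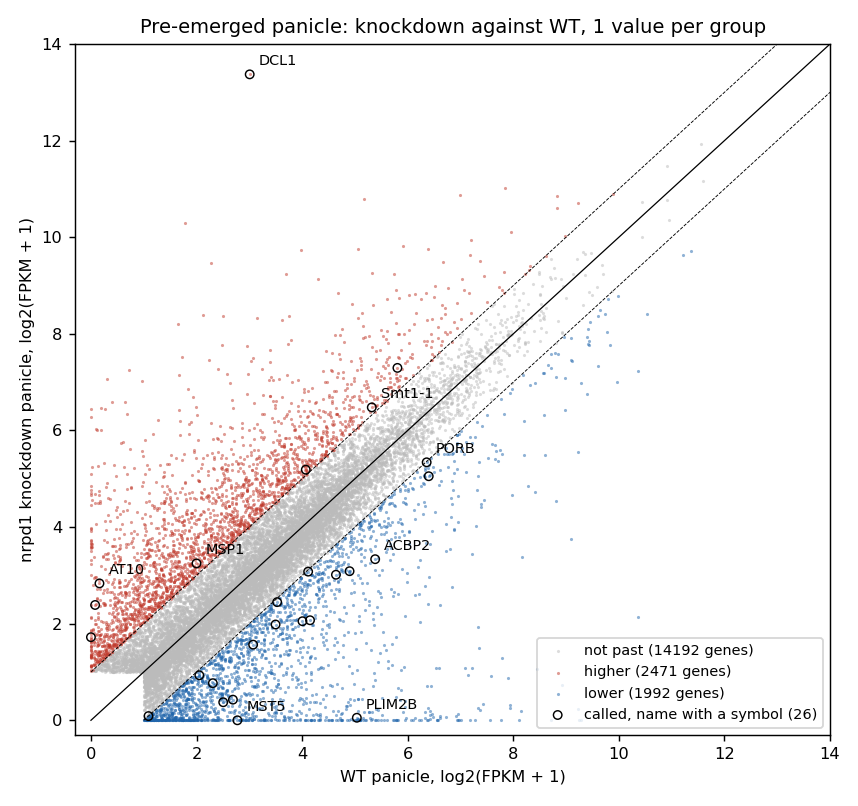
Each point is 1 of the 18655 compared genes, with log2(FPKM + 1) in WT panicle on the x axis and in nrpd1 knockdown panicle on the y axis; dashed lines mark a difference of 1 and open circles the called genes that have a symbol. DCL1 lies far above the other genes at the top left, and PLIM2B and MST5 lie on the floor of the knockdown axis.

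Gene names limit what can be said of function. The table gives 28396 of the names as a single Os number, none of which the RefSeq gene table used here pairs with a symbol, and 188 names carry a symbol. Of these 188, 124 were compared, and 8 (6.45%) were higher and 18 (14.5%) were lower in knockdown panicle. NRPD1 could not be tied to a row by name, so the knockdown itself was not checked and is not analysed here.

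The few genes of floral organ identity and inflorescence meristems found by name were faint or differed little. MADS14, an APETALA1/FRUITFULL-type MADS-box gene that promotes the change to a floral meristem, had 15.3 FPKM in WT panicle against 12.4 FPKM in the knockdown, a log2 difference of -0.27. MADS58, a C-class gene of floral meristem determinacy, had 0.975 FPKM in WT against 0.296 FPKM in the knockdown. MADS30 was listed at 0 in both panicle columns. Of these 3 genes of the floral identity list, MADS14 was the 1 compared, and it was not called. The other genes of the list were under 1 FPKM in both panicle columns and could not be called. Over all compared genes 23.9% were called in either direction. OSH1, the KNOX gene that marks indeterminate meristem cells, had 0.788 FPKM in WT panicle against 0.409 FPKM in the knockdown. Of the marker list for inflorescence meristem and young spikelet, MADS14 and OSH1 were found by name, with a summed level of 16.04 FPKM in WT and 12.9 in knockdown panicle. The defining meristem marker of this pair, OSH1, was under 1 FPKM in both panicle columns.

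Panicle branching and meristem regulators found by name were likewise mostly under 1 FPKM. MOC1, a GRAS protein needed for axillary meristems, had 0.558 FPKM in WT panicle against 0.867 FPKM in the knockdown. LAX2, which acts in axillary meristem formation, had 0.0839 FPKM in WT against 0.284 FPKM in the knockdown. SPL13, a SQUAMOSA promoter-binding protein-like factor, had 0.0716 FPKM in WT against 0.820 FPKM in the knockdown. GRF4, a growth-regulating factor that raises grain size, had 0.589 FPKM in WT against 1.48 FPKM in the knockdown, a log2 difference of 0.64. The 6 members found of this list gave 2 compared genes, of which HOX22 was lower and GRF4 was not called. The list held HOX22 by its family's letters, so its call is not read as one of a branching regulator. HOX22, a homeodomain-leucine zipper gene (chromosome 4, 27124165 to 27125561), had 3.15 FPKM in WT panicle against 0.908 FPKM in the knockdown, a log2 difference of -1.12. D53, the repressor of strigolactone signalling that acts on tillering, had 5.49 FPKM in WT panicle against 7.72 FPKM in the knockdown and was not called.

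Among early anther genes MSP1 was higher in the knockdown. MSP1 (chromosome 1, 40016511 to 40023875) encodes a leucine-rich repeat receptor kinase that limits the number of sporocytes and is needed for the tapetum. It had 2.997 FPKM in WT panicle against 8.50 FPKM in the knockdown, a log2 difference of 1.25. In anther it had 1.15 FPKM in WT against 3.65 FPKM in the knockdown, so both knockdown values lay above both WT values. It was the 1 of the 8 higher names that was also called higher in anther, where 7.37% of 17943 compared genes were called higher and 17.6% lower by the same limit. DTM1, required for tapetum and meiocyte development, had 20.06 FPKM in WT panicle against 23.99 FPKM in the knockdown and was not called. CRC1, which acts in synaptonemal complex assembly and was the 1 gene of the meiosis list found by name, had 3.86 FPKM in WT panicle against 3.59 FPKM in the knockdown, a log2 difference of -0.08. Its anther values were 5.23 FPKM in WT and 5.18 FPKM in knockdown. No marker fixed for tapetum, for germ cells in meiosis or for mature pollen was found by name, so those cell types were not followed through marker lists.

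The lipid transfer gene LTP110-A was the other member of the tapetum and anther wall list found by name, matched by its family's letters. It had 0.0565 FPKM in WT panicle against 4.23 FPKM in the knockdown, a log2 difference of 2.31. Its name stands at 2 loci, and the panicle signal was all in the row on chromosome 12 (727801 to 728559). The row on chromosome 11 was listed at 0 in both panicle columns. Near-identical copies of this gene may share reads, so which copy was expressed is uncertain.

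The lowest log2 difference among names with a symbol was that of a pollen-type gene. PLIM2B (chromosome 4, 26620954 to 26622644) belongs to the LIM domain proteins that bind actin filaments, and PLIM2 proteins of Arabidopsis are pollen proteins. It had 31.8 FPKM in WT panicle against 0.0372 FPKM in the knockdown, a log2 difference of -4.98. In anther it had 541 FPKM in WT against 71.5 FPKM in the knockdown, so it was lower in the knockdown in both tissues and far higher in anther than in panicle.

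Of the genes of sugar supply to anther and pollen, the monosaccharide transporters MST5 and MST6 were lower. The list had 12 names found and 9 compared, so these were 2 of 9, beside 10.7% of all compared genes, and none was higher, beside 13.2%. It had a median log2 difference of -0.67, against -0.03 over all compared genes. The monosaccharide transporter MST5 (chromosome 8, 4570996 to 4585726) was at 5.84 FPKM in WT panicle and was listed at 0 in knockdown panicle. MST5 was also lower in anther, with 63.1 FPKM in WT against 20.3 FPKM in the knockdown. With every row of its locus summed, the panicle difference was -0.54, since other names share that locus. MST6 (chromosome 7, 22353026 to 22355871) had 16.3 FPKM in WT panicle against 7.44 FPKM in the knockdown, a log2 difference of -1.04. MST4 went the same way without being called, with 10.98 FPKM in WT against 6.52 FPKM in the knockdown. MST2 differed in the other direction, with 8.30 FPKM in WT panicle against 10.3 FPKM in the knockdown, and MST8, a transporter of the anther, was under 1 FPKM in all 4 columns. The row that joins the vacuolar sucrose transporter gene SUT2 with a neighbour had 32.2 FPKM in WT panicle against 26.7 FPKM in the knockdown. The small GTPase gene RAC1, which this list held by its letters, had 7.38 FPKM in WT panicle against 13.3 FPKM in the knockdown, a log2 difference of 0.77. NIP3-1, also held by its letters, had 21.8 FPKM in WT panicle against 16.2 FPKM in the knockdown, a log2 difference of -0.41. The count of 9 and the median of the list include RAC1 and NIP3-1, which are not sugar transporter genes.

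Starch synthesis genes, taken by name, differed little between the panicle columns. The list held all 6 named subunits of ADP-glucose pyrophosphorylase, the enzyme that makes the glucose donor for starch. All 6 were compared and none was called, with log2 differences from -0.43 for AGPL1 to 0.10 for AGPL2. With every row of its locus summed, AGPL4 stood at -1.27, past the limit, against -0.08 by its own name. AGPL3, the most abundant of them, had 23.8 FPKM in WT panicle against 25.04 FPKM in the knockdown. In anther the same gene had 89.97 FPKM in WT against 18.3 FPKM in the knockdown.

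**Figure D2:**
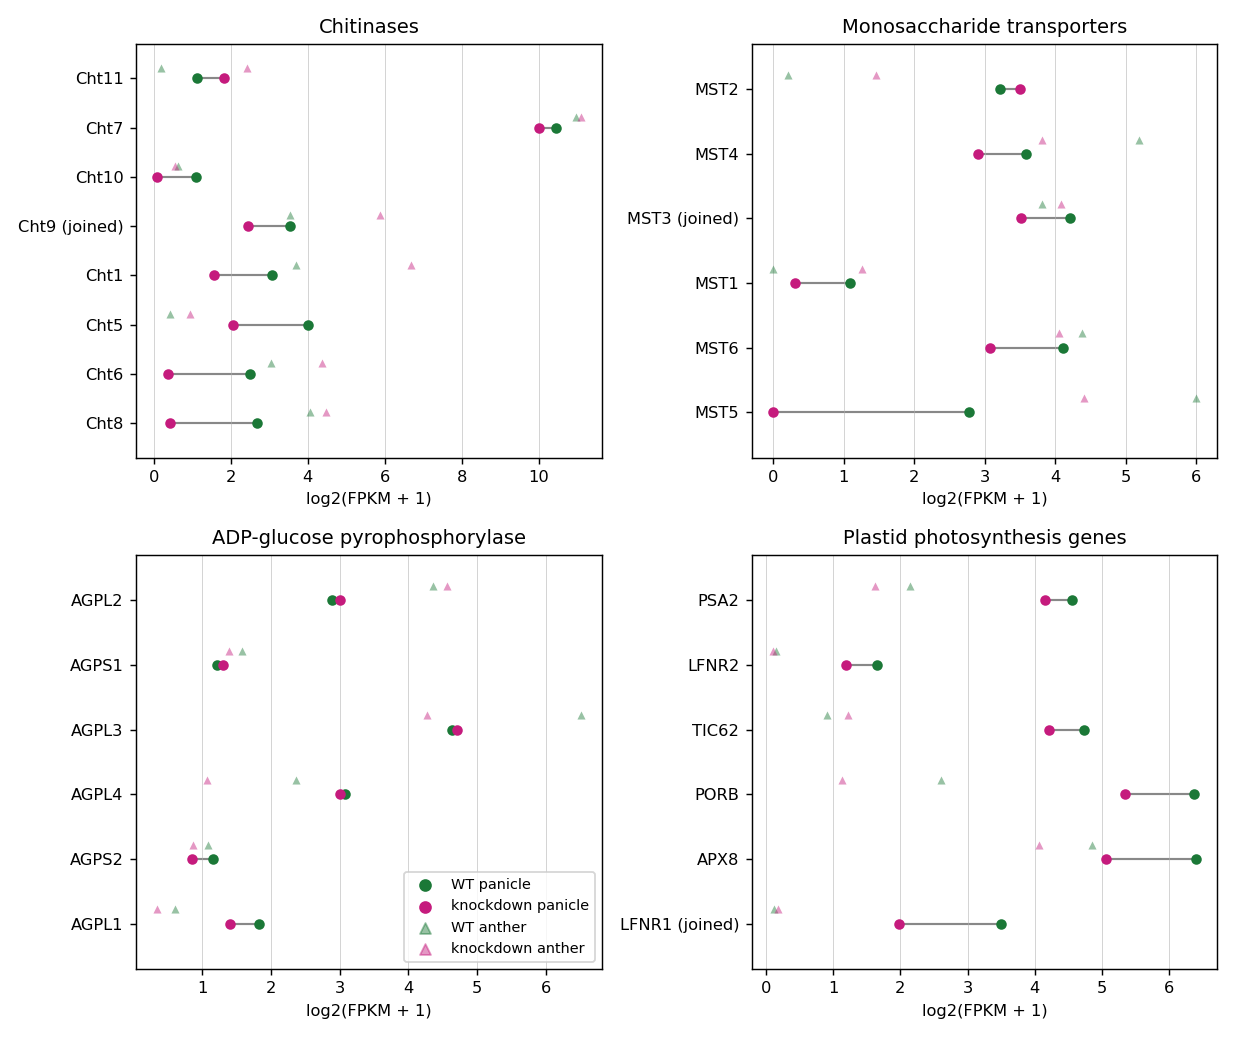
Values of named genes by family as log2(FPKM + 1), with circles for panicle, triangles for anther, green for WT and pink for knockdown; a grey line joins the panicle values, and members under 1 FPKM in all columns are left out. In 7 of the 8 chitinase names shown, all but Cht11, the knockdown panicle value lies left of WT, while the 6 starch subunits have panicle values close together.

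Chitinases, which cleave chitin and are known as defence proteins against fungi, formed the largest group of lower names. Of 8 compared names of the Cht family, 6 were lower against 10.7% of all compared genes, none was higher, and the median log2 difference was -1.29. The family was set apart after values were seen, so this shared direction is not independent of the choice. With a mean of at least 5 FPKM required, Cht5, Cht7 and the row joining Cht9 with a neighbour were kept. Cht5 and the joined row, 2 names, were still lower, and the other Cht names were too faint for this filter. Cht8 (chromosome 10, 21205681 to 21207611) had 5.45 FPKM in WT panicle against 0.345 FPKM in the knockdown, a log2 difference of -2.26. Cht6 (chromosome 2, 23742999 to 23744109) had 4.68 FPKM in WT panicle against 0.296 FPKM in the knockdown. Cht5 (chromosome 4, 24708399 to 24709921), which was under 1 FPKM in both anther columns, had 15.1 FPKM in WT panicle against 3.14 FPKM in the knockdown. The other lower names were Cht1, with 7.41 FPKM in WT against 1.96 FPKM in the knockdown, the joined Cht9 row, at 10.5 and 4.45 FPKM, and Cht10, at 1.13 and 0.0624 FPKM. The faintness of Cht10 left its difference of -1.002 at the limit. Cht7, by far the most abundant, had 1392 FPKM in WT panicle against 1033 FPKM in the knockdown and was not called. Cht11 differed in the other direction, with 1.16 FPKM in WT against 2.52 FPKM in the knockdown, without being called. These genes are paralogs, and reads of similar copies may have been divided between them.

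In anther 3 of the 6 chitinase names that were lower in panicle were higher in the knockdown, beside 7.37% of the 17943 genes compared there. Cht1 had 11.98 FPKM in WT anther against 102 FPKM in the knockdown. The joined Cht9 row was at 10.6 and 58.2 FPKM in the same order, and Cht6 at 7.21 and 19.5 FPKM. The difference between the tissues could not be tested. Of the other 3, Cht8 was not called in anther, and Cht5 and Cht10 were under 1 FPKM in both anther columns. Cht7 was not called in either tissue. Cht11 was called higher in anther, with 0.141 FPKM in WT against 4.35 FPKM in the knockdown, and its panicle value was also above WT.

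Some genes of the chloroplast were among the lower names; they were picked after their values were seen, so their shared direction is fixed by the choice. PORB (chromosome 10, 18900289 to 18904022), a protochlorophyllide oxidoreductase of chlorophyll synthesis, had 81.1 FPKM in WT panicle against 39.5 FPKM in the knockdown, a log2 difference of -1.02. APX8 (chromosome 2, 20868198 to 20878177), a chloroplast ascorbate peroxidase, had 83.3 FPKM in WT panicle against 32.2 FPKM in the knockdown, a log2 difference of -1.35. The row joining the leaf-type ferredoxin-NADP reductase gene LFNR1 with a neighbour had 10.3 FPKM in WT against 2.95 FPKM in the knockdown, a log2 difference of -1.51 that shrank to -0.67 with every row of the locus summed. TIC62, LFNR2 and PSA2 had log2 differences of -0.52, -0.46 and -0.40 and were not called. Other names with plastid roles differed the other way without being called. PRIN2, a factor of plastid transcription, had 12.7 FPKM in WT panicle against 16.4 FPKM in the knockdown. GATB, a subunit of an organellar amidotransferase, had 13.98 FPKM in WT panicle against 19.6 FPKM in the knockdown. ORRM1, an organelle RNA editing factor, had 1.59 FPKM in WT panicle against 2.41 FPKM in the knockdown, a log2 difference of 0.40 that turned to -0.26 with every row of its locus summed. The marker list for green leaf tissue held no called gene. Its 3 members found by name, PSA2 and rows that join psbE and psbF or ndhM with Os numbers, summed to 50.4 FPKM in WT panicle against 43.8 FPKM in the knockdown. The row with psbE and psbF had 19.3 FPKM in WT panicle against 20.5 FPKM in the knockdown. It is placed on chromosome 3 (25800414 to 25804877), so whether its reads came from transcripts of the chloroplast genome is not known. The row with ndhM had 8.53 FPKM in WT panicle against 6.43 FPKM in the knockdown. The part that the amount of green tissue had in these values was not tested.

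The few small RNA and DNA methylation genes compared by name, other than DCL1, were not called. NRPD1, RDR2 and DRM2 were among the list members not found by name, so the small RNA pathway as a whole was not followed. DCL1, the Dicer-like enzyme that cuts microRNA precursors, was listed with 7.04 FPKM in WT panicle against 10595 FPKM in the knockdown, while a second row joining DCL1 with a neighbour at the same locus was at 4.64 FPKM in both. Whether the value of 10595 FPKM reflects transcripts of the gene or the estimation of FPKM was not tested, since reads were not used here. SHL2, the rice RDR6 that makes the double-stranded precursors of trans-acting small RNAs, had 8.04 FPKM in WT panicle against 9.16 FPKM in the knockdown, a log2 difference of 0.17. PHN1, listed in the RefSeq table with the synonym OsPNH1 for a PINHEAD-type Argonaute, had 9.72 FPKM in WT panicle against 13.5 FPKM in the knockdown. DCL3B and CMT3 differed by 0.03 and -0.08 on the log2 scale. Of the 6 names found of the small RNA and DNA methylation list, 5 were compared, and the call of DCL1, which rests on that value, was the 1 call.

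In the columns as deposited no gene of the hormone list was called, with 8 of 11 names compared and a median log2 difference of 0.29. The auxin response factor gene ARF2 lay just under the limit, with 4.21 FPKM in WT panicle against 9.35 FPKM in the knockdown, a log2 difference of 0.99. TIFY11A, a JAZ repressor of jasmonate responses, had 18.5 FPKM in WT panicle against 9.71 FPKM in the knockdown, a log2 difference of -0.86. It passed the limit with equal totals, at -1.01. TIFY3 of the same family differed the other way, with 82.2 FPKM in WT panicle against 108 FPKM in the knockdown. Of the cell cycle and histone list 1 of 3 names was compared and was not called. This was KIN13A, a kinesin-13 gene of grain size, with 28.8 FPKM in WT panicle against 51.95 FPKM in the knockdown, a log2 difference of 0.83. The transport list had 9 names, 4 of them compared and 1 lower, a row joining the potassium transporter gene HAK10 with a neighbour, at 28.8 FPKM in WT against 7.496 FPKM in the knockdown. Of the 14 names of the stress and defence list, 10 were compared and 7 were lower, beside 10.7% of all compared genes. These 7 were the 6 chitinases described above and APX8, so the count largely repeats theirs. No gene of the flowering time and clock list was found by name.

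Higher genes with a symbol included a cell wall acyltransferase gene, a 4-coumarate-CoA ligase-like gene and a sterol methyltransferase gene. AT10 (chromosome 6, 23379155 to 23381421), an acyltransferase that adds hydroxycinnamates to cell wall arabinoxylan, had 0.118 FPKM in WT panicle against 6.13 FPKM in the knockdown, a log2 difference of 2.67. It was under 1 FPKM in both anther columns. 4CLL9 (chromosome 4, 14072506 to 14074737), a 4-coumarate-CoA ligase-like gene, was listed at 0 in WT panicle and at 2.30 FPKM in knockdown panicle. A second name at exactly this locus was listed at 0 in WT panicle and at 85.98 FPKM in knockdown panicle, so the values there depend on how reads were divided between names. Smt1-1 (chromosome 7, 5750706 to 5756722), a sterol C-24 methyltransferase gene, had 38.9 FPKM in WT panicle against 88.1 FPKM in the knockdown, a log2 difference of 1.16. With equal totals it stood at 0.998 and was no longer called.

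Lower genes with a symbol included further enzymes and binding proteins. ACBP2 (chromosome 6, 860812 to 862571), an acyl-CoA-binding protein, had 40.7 FPKM in WT panicle against 9.09 FPKM in the knockdown, a log2 difference of -2.05. In anther it was at 16.2 FPKM in both genotypes, and of the 6 names of its family it was the 1 called in panicle. SCP26 (chromosome 5, 3439183 to 3443809), a serine carboxypeptidase-like gene, had 23.9 FPKM in WT panicle against 7.07 FPKM in the knockdown, a log2 difference of -1.63. SCP26 was also lower in anther, with 13.5 FPKM in WT against 1.78 FPKM in the knockdown.

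Several named genes lay just under the limit on either side. PSS1 had 7.18 FPKM in WT panicle against 14.9 FPKM in the knockdown, a log2 difference of 0.96. LYP6, a LysM receptor for peptidoglycan and chitin, had 10.9 FPKM in WT panicle against 21.9 FPKM in the knockdown, a difference of 0.94. RS2, named for ROUGH SHEATH2, the maize MYB repressor of KNOX genes, had 0.222 FPKM in WT panicle against 1.26 FPKM in the knockdown, a difference of 0.89. On the lower side ALS1, the acetolactate synthase of branched-chain amino acid synthesis, had 59.6 FPKM in WT panicle against 30.2 FPKM in the knockdown, a difference of -0.96. With equal totals ALS1 stood at -1.12, past the limit.

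Among 4 further families, those of DHAR and MDAR, of SERK and SERL, of Dof and of RISBZ genes, no compared member was called. Over all compared genes 23.9% were called in either direction. Compared were 3 of 4 SERK and SERL names, 3 of 4 Dof names and 2 of 4 RISBZ names. These families were chosen after values were seen. Of the 8 names of DHAR and MDAR genes, which return oxidised ascorbate to its reduced form, 6 were compared. DHAR1, the most abundant, had 419 FPKM in WT panicle against 562 FPKM in the knockdown, a log2 difference of 0.42. DHAR1 went the other way in anther, with 483 FPKM in WT against 182 FPKM in the knockdown. DHAR2 had 29.8 FPKM in WT panicle against 19.8 FPKM in the knockdown. SERK2 and SERK4, co-receptor kinases, differed by -0.58 and -0.29 on the log2 scale. Among the Dof zinc finger factors DOF4 had 109 FPKM in WT panicle against 69.9 FPKM in the knockdown, while DOF2 had 5.94 against 9.95 FPKM, log2 differences of -0.64 and 0.66.

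**Figure D3:**
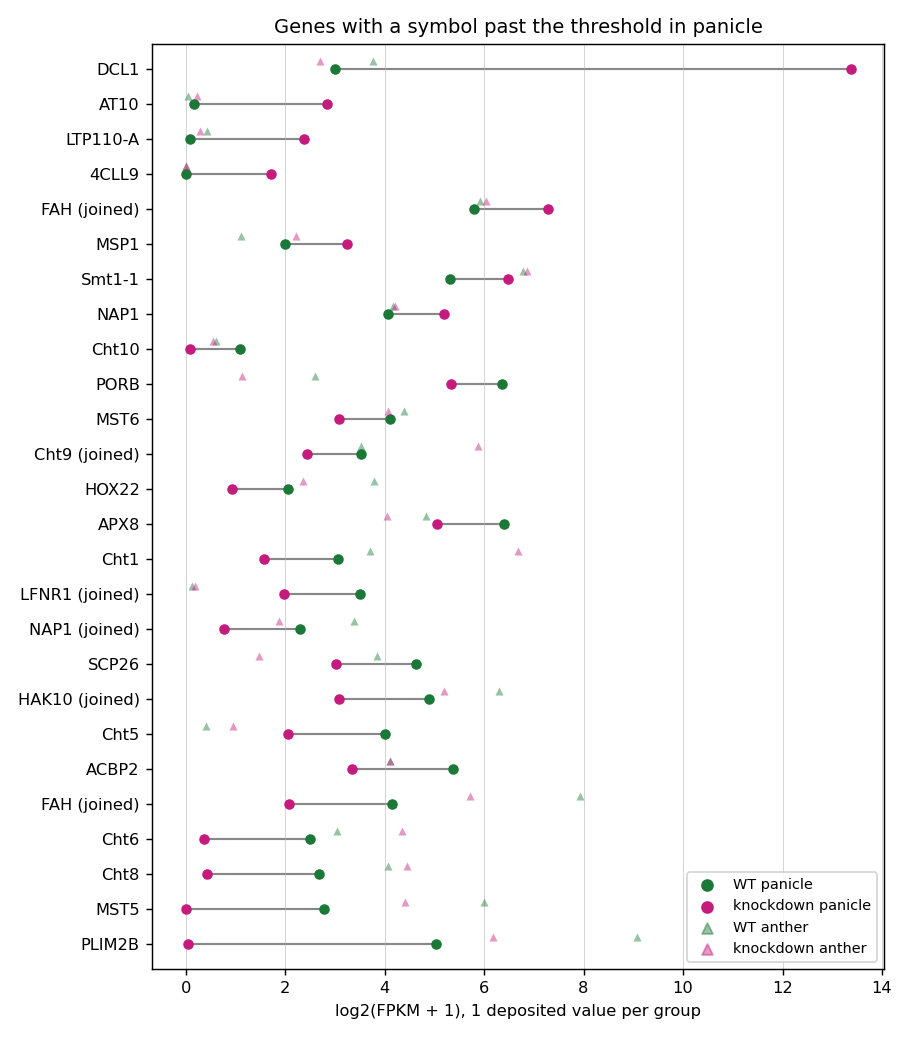
The 26 names with a symbol that were called in panicle, ordered by log2 difference, with log2(FPKM + 1) on the x axis; circles are panicle and triangles anther, green is WT and pink is knockdown, and each point is 1 deposited value. DCL1 runs between 7.04 and 10595 FPKM. The WT anther value exceeds the WT panicle value for 11 of the 18 lower and 5 of the 8 higher names, which are similar shares.

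At 2 loci with a symbol, 1 row was called higher and another lower. The NAP1 row (chromosome 8, 27267784 to 27290565; a subunit of the complex that starts actin branching) had 15.8 FPKM in WT panicle against 35.4 FPKM in the knockdown, a log2 difference of 1.12. A row joining NAP1 with a neighbour at the same locus had 3.95 FPKM in WT against 0.703 FPKM in the knockdown, a difference of -1.54. Summed over the locus the difference was 0.84, and with equal totals that of the NAP1 row was 0.96, both under the limit. A locus named FAH (chromosome 2, 5411298 to 5418677) had a joined row that was higher, with 54.9 FPKM in WT against 156 FPKM in the knockdown, and a joined row that was lower, at 16.7 and 3.20 FPKM. Over all genes, 1699 loci held at least 2 compared names, 642 of them had a called name, and 23 had a name called higher beside a name called lower.

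Called genes without a symbol were described by their levels, since their function is not given. The 2 highest differences were those of Os11g0582500 (chromosome 11, 22016847 to 22018498), with 2.42 FPKM in WT panicle against 1250 FPKM in the knockdown, and of Os10g0147900 (chromosome 10, 2885293 to 2889781), at 3.84 and 705 FPKM. The 2 lowest belonged to Os01g0159500 (chromosome 1, 3122885 to 3124145) at 623 FPKM and Os05g0543000 (chromosome 5, 26948362 to 26949985) at 607 FPKM in WT panicle, both listed at 0 in knockdown panicle. All of them differed in the same direction in anther. Os11g0582500 had 7.71 FPKM in WT anther against 327 FPKM in the knockdown, and Os10g0147900 had 1.83 against 346 FPKM. Os01g0159500 had 10201 FPKM in WT anther against 1003 FPKM in the knockdown, and Os05g0543000 had 9818 against 1000 FPKM.

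Genes listed at 0 in 1 panicle column were more frequent on the knockdown side. There were 120 genes at 0 in knockdown panicle that reached 5 FPKM in the WT, and 22 at 0 in WT panicle that reached 5 FPKM in the knockdown. With at least 20 FPKM in the other column the numbers were 60 and 8. All 60 of the former had at least 100 FPKM in WT anther, with a median of 574 FPKM there and 74.9 FPKM in knockdown anther. All 8 of the latter were under 1 FPKM in both anther columns. Genes at 0 in knockdown panicle were thus abundant anther transcripts at this level, and genes at 0 in WT panicle were not.

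Over all called genes, the anther columns, which did not enter the calls, also differed between the directions. The calls themselves split genes by WT level. In WT panicle the lower genes had a median of 8.93 FPKM and the higher genes one of 3.03 FPKM. A gap in WT anther is therefore not independent of how the genes were called. Genes lower in knockdown panicle had a median of 16.1 FPKM in WT anther, with quartiles of 2.45 and 57.7. Genes higher in knockdown panicle had a median of 1.94 FPKM there, with quartiles of 0.338 and 8.66, and all compared genes one of 6.61 FPKM. At least 100 FPKM in WT anther was reached by 17.8% of the lower genes, 2.10% of the higher genes and 5.34% of all compared genes. In knockdown anther the medians were 5.75 FPKM for lower genes, 2.92 FPKM for higher genes and 6.13 FPKM for all compared genes. With genes of at least 100 FPKM in WT anther left out, 9.28% of 17659 genes were still lower and 13.7% were higher. The part that the amount or stage of anthers in the panicle samples had in these calls was not tested.

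**Figure D4:**
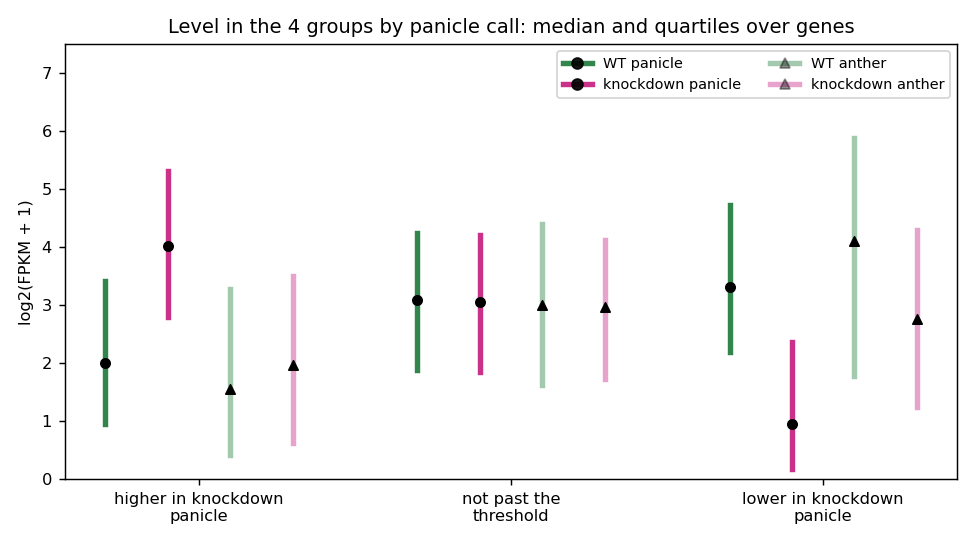
Median (black symbol) and quartiles (bar) over genes of log2(FPKM + 1) in the 4 groups, for genes called higher, not called and called lower in knockdown panicle. The panicle columns made the calls; in the anther columns the lower genes have a WT median of 16.1 FPKM and the higher genes one of 1.94 FPKM.

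Calls were more frequent among abundant genes and among short loci. Of the 881 genes with at least 100 FPKM in the larger panicle value, 27.4% were higher and 16.2% were lower, against 6.504% and 10.02% of the 4090 genes between 1 and 3 FPKM. The level used here is the larger value of the same contrast, and the pseudocount shrinks the differences of faint genes. Of the 4668 genes in the shortest quartile of locus span, 299 to 2595 bases, 22.8% were higher and 17.1% were lower. In the longest quartile, from 6998 bases, the shares were 7.83% and 9.05%. Among genes with at least 10 FPKM in the larger panicle value, 28.7% of the shortest and 11.2% of the longest quartile were higher, so the order by span was also found in abundant genes. Of the 1476 names that join several genes, 7.45% were higher and 10.1% were lower.

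**Figure D5:**
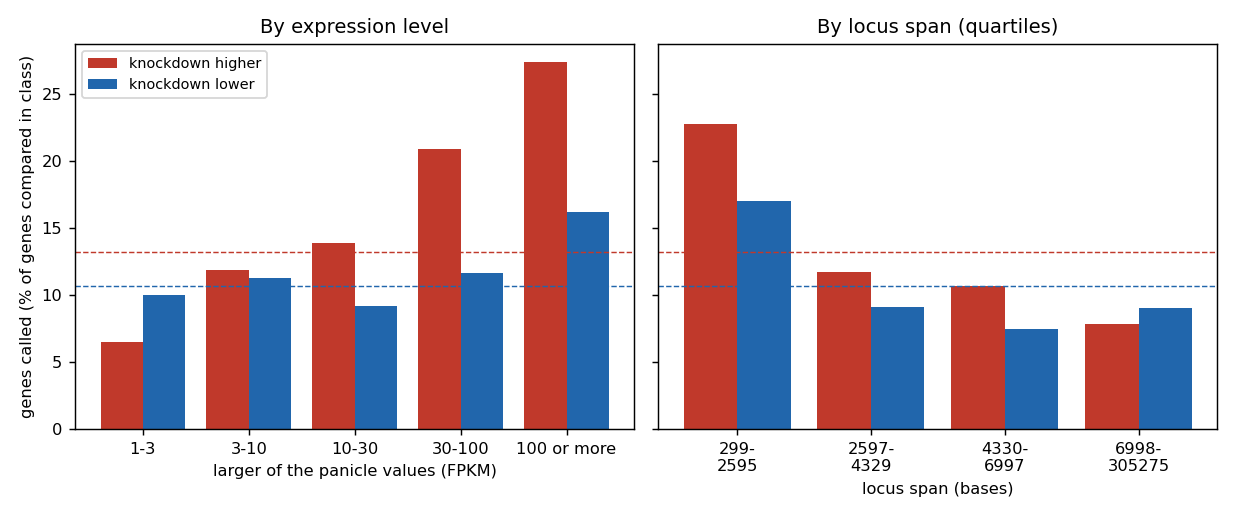
Share of compared genes called higher (red) and lower (blue) in knockdown panicle, by the larger panicle FPKM value (left) and by quartile of locus span in bases (right); dashed lines are the shares over all compared genes, 13.2% and 10.7%. The bars for higher genes climb from 6.504% to 27.4% with level and drop from 22.8% to 7.83% with span.

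Along the genome the calls were spread over all 12 chromosomes. The share of higher genes ran from 11.4% on chromosome 12 to 14.3% on chromosome 4, and that of lower genes from 9.19% on chromosome 3 to 12.6% on chromosome 12. Chromosome 12 was the 1 chromosome with more lower than higher genes, 125 against 113. Among 15954 loci in order, with joined names left out, 11 runs of at least 4 neighbouring loci were all higher and 6 such runs were all lower. The higher runs held 47 loci and the lower runs 27. Whether the share of called genes alone would give as many runs was not tested. The longest run, of 6 loci on chromosome 4 (18779046 to 18850652; build not stated), had log2 differences from 2.04 to 4.03 and knockdown panicle values from 4.25 to 169 FPKM, against 0.276 to 9.45 FPKM in WT panicle. In anther the same loci lay between 0 and 4.25 FPKM in WT. A run of 5 loci on chromosome 6 (27306654 to 27339030) was listed at 0 in knockdown panicle throughout, with 1.72 to 145 FPKM in WT panicle and 16.3 to 1567 FPKM in WT anther. Neighbouring genes that are copies of each other can share reads, and whether these are copies is not given in the table.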

How the data were processed

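Values are FPKM for 4 groups, as the authors deposited them in 1 table; unit and groups follow from the file headers. Libraries were directional, per the labels' protocols. Trimmomatic, HISAT2 and Cufflinks 2.2.1 are listed per the submitters' processing notes, with no roles. Genome build, annotation and how 2 libraries became 1 value are not given in the sources used here. Depth is unknown.

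Rows sharing a gene name were added up, a pseudocount of 1 was added, and log2 values were subtracted (knockdown minus WT). Where a gene had 2 rows, the weaker was typically a small part of the stronger, by median 2.41% in WT panicle and 2.29% in knockdown panicle. Genes with at least 1 FPKM in either panicle column were compared; a call is a log2 difference of at least 1, with no test. The named genes were list members found by symbol, called genes with a symbol, and the 2 highest and 2 lowest Os numbers; others, and the family and chloroplast groups, were chosen after values were seen. The members and lists were chosen with earlier results of these data known. List matching was by letters, which also took in HOX22, GLU (a glutamate synthase), RAC1, NIP3-1, PTAC12 and KIN13A. Of 176 symbols, 98 are in the RefSeq table (assembly ASM3414082v1), used for synonyms. No sequences are printed, since none was in the files used. Alternatives covered pseudocount, filters, scaling, row handling, threshold and subtraction of an anther share; summing loci, totals without DCL1 and leaving out anther-abundant genes were chosen after seeing the data. Python 3.11.15, numpy 2.4.6, pandas 2.3.3 and matplotlib 3.10.9 were used, and the calling step was tested on simulated data.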

Additional observations from a re-analysis of the deposited data

Results flagged for a closer look

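Among the called names, 4 with a symbol passed the limit in opposite directions in the tissues, which is why they are listed. With 1 value per group the difference was not tested. Of the 18 lower names, 8 were also called lower in anther and 3 higher. Of the 8 higher names, 1 was called higher in anther and 1 lower. Among all genes compared in anther, 17.6% were called lower and 7.37% higher. Cht6 had a log2 difference of -2.13 in panicle and 1.32 in anther. Cht1 had -1.51 in panicle and 2.98 in anther. The row joining Cht9 with a neighbour had -1.08 in panicle and 2.36 in anther. DCL1 had 10.36 in panicle and -1.06 in anther. A joined row at the DCL1 locus went the other way in anther, with 1.08, and the anther sum of the 2 names there was 16.3 FPKM in WT against 14.5 FPKM in the knockdown, a log2 difference of -0.16. The anther call of DCL1 thus depends on how reads were divided between rows.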

How the results depend on the processing

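No paired analysis was possible because each group is a single deposited column, with none per library; likewise no replicate could be left out and no limma fit was run. Requiring a mean of 5 FPKM gave 1040 lower genes, 5 higher and 11 lower names with a symbol, and 2 lower chitinases. This filter drops faint names and leaves the differences of the others as they were. A log2 limit of 2 gave 778 higher and 691 lower genes, 3 higher and 6 lower names with a symbol, and 2 lower chitinases. A pseudocount of 0.1 gave 13 higher names with a symbol. Equal totals moved the median difference to -0.17, and equal totals without DCL1 to -0.14. One alternative subtracted 7.33% of WT anther from WT panicle. That share was the median ratio of 180 genes that reached 200 FPKM in WT anther and there exceeded their knockdown panicle value 100-fold or more, so it came from genes already low in knockdown panicle, it can only raise the differences, and nothing is drawn from it. It gave 1317 lower genes, 69.2% of calls higher, a median of 0.12 and 15 higher names with a symbol. It turned the lower FAH row to 2.07 and TIFY11A to 3.42, ended the lower calls of HOX22, MST6, Cht10 and the joined Cht9 row, and left PLIM2B, Os01g0159500 and Os05g0543000 under 1 FPKM in both columns. With all rows of a locus summed, the same FAH row stood at 1.12 and the lower NAP1 row at 0.84, as their loci hold a more abundant row. Depth behind any value is unknown.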
